A study of Mus musculus with 2 samples.

Results

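The 10 genes of the cornified envelope described here (Sprr1a, Sprr1b, Sprr3, Ivl, Lor, Flg, Krtdap, Sbsn, Tgm1 and Tgm3) were followed through the keratinocytes of mouse tongue tumours. They are 10 of the 31053 genes in the files and were chosen by name, as genes of terminal keratinocyte differentiation. The tumours were squamous carcinomas of the tongue induced with the carcinogen 4NQO in wild type C57BL/6 mice, and all mice received 4NQO. One group was then given JQ1, an inhibitor of the BET bromodomain proteins that bind acetylated chromatin, and the other was given a control treatment, both for 10 days. Each group is 1 library of single cells, and the sources used here do not give the number of mice behind a library, their age or the control agent. No value below therefore has a replicate or a test, and every interval is a 95% interval that covers counting error only.

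The cornified envelope is the protein shell that replaces the plasma membrane of a keratinocyte at the end of its life. Precursor proteins such as involucrin, loricrin and the small proline-rich proteins collect under the membrane and are cross-linked by transglutaminases. Tongue epithelium is a mixed tissue in which some areas keratinise and others form a softer lining marked by the keratins Krt13 and Krt4, while Krt1 and Krt10 mark keratinising suprabasal cells and Krt15 marks basal cells.

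Keratinocytes were 5311 of 8150 kept control cells and 1519 of 14044 kept JQ1 cells, taken as cells in which 12 keratins held at least 0.5% of UMIs (counted RNA molecules) and outnumbered a panel of 10 stromal and immune genes. Their median depth was 17300 UMIs in control and 11601 in JQ1. By their leading keratin, 630 control and 414 JQ1 cells fell in the Krt15 gate, 399 and 192 in the Krt13+Krt4 gate, 254 and 10 in the Krt1+Krt10 gate, and 820 and 10 in the Krt42 gate. The other 3208 control and 893 JQ1 keratinocytes passed none of the gates and are called ungated. A gate is a range of keratin levels and not a cell type, and cells within 1.5-fold of a second gate were 45 and 22 in the Krt15 gate and 31 and 13 in the Krt13+Krt4 gate. The gating keratins were not level between the libraries inside a gate: Krt13 in its own gate was at 21777 CPM (a gene's UMIs in a group of cells, scaled to the same total in every group) in control and 14212 in JQ1, and Krt1 in its own gate was at 1399 and 318. In the Krt13+Krt4 gate, Krt14, which sets no gate, was at 6411 CPM in control and 14726 in JQ1, and Krt16 at 6629 and 10320. The part of these keratins in the results was not tested. RNA of other cells was also unequal in the keratinocytes. Summed over all of them, 2 erythroid genes stood at 0.522 CPM in control and 1551 in JQ1, 7 gland genes at 67.6 and 1486, and 5 fibroblast genes at 125 and 394, with every one of these genes detected in both libraries. In the Krt13+Krt4 gate the same sums were 0.576 and 1978 CPM, 115.7 and 1085, and 44.7 and 378, and their part in the results was not tested. Endothelial, immune, Schwann and muscle lists summed to at most 35.4 CPM in either library over all keratinocytes, and 4 hair-type keratins of the filiform papillae to 39.1 and 66.8 CPM. In the Krt15 gate alone the immune list summed to 80.6 CPM in control and 9.10 in JQ1, the gland list to 142.2 and 1289, the erythroid list to 0.900 and 323 and the fibroblast list to 494 and 469, and their part in the results of that gate was not tested. The libraries shared 40 barcodes, 22 of them control and 2 of them JQ1 keratinocytes.

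Of the 10 genes, 6 lie on chromosome 3 within 1.21 Mb, from Lor to Flg, in the epidermal differentiation complex, where many envelope precursors are clustered. Sbsn and Krtdap are neighbours within 0.0396 Mb on chromosome 7, Tgm1 is on chromosome 14 and Tgm3 on chromosome 2 (GENCODE M21, GRCm38; all 10 are protein-coding). Promoters of all 10 genes, 11 in number since Tgm1 has 2, were found in the RefSeq table (GRCm38.p6; 250 bases before to 50 after the start). Those of Sprr1a, Sprr1b and Krtdap, which hold AP-1 letters, and of Tgm3, which does not, are shown for the 250 bases before the start, 5′ to 3′ on the gene's strand, with matches to the AP-1 motif TGANTCA and the TATA box TATAAA in capitals.
Sprr1a promoter, chr3:92485882-92486131, minus strand: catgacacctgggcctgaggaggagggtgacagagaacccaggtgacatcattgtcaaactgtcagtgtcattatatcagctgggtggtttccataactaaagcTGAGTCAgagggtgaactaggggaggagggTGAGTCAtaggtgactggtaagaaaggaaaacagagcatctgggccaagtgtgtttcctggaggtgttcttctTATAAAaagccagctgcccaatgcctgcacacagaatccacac
Sprr1b promoter, chr3:92438780-92439029, minus strand: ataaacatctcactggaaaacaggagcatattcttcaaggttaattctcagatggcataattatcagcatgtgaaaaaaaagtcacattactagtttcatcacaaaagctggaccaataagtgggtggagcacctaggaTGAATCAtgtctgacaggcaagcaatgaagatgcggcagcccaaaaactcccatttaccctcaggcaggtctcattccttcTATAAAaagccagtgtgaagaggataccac
Krtdap promoter, chr7:30787655-30787904, plus strand: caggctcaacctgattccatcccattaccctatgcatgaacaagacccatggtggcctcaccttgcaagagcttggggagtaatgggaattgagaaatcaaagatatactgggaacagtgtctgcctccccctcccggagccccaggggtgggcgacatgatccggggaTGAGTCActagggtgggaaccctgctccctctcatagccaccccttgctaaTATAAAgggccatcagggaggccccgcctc
Tgm3 promoter, chr2:130012090-130012339, plus strand: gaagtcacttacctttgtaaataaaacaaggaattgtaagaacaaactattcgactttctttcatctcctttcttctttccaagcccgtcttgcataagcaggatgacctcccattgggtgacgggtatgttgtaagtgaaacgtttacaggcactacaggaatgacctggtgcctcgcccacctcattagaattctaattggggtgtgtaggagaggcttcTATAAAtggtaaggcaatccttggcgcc
In all, 3 motifs were searched on both strands. TGANTCA was found in 7 of the 10 genes, against 7.81% of all 32851 promoters of that length, TATAAA in 8 against 13.6%, and CACCC, a core of KLF-type sites, in 9 against 57.5%. Sprr1a carries the AP-1 letters at 2 places, with first bases at -146 and -116 from the start, Sprr1b at -111 and Krtdap at -81. Sprr3, Tgm1 and Tgm3 have no match to TGANTCA in this window. No AP-1 match overlapped a TATA match, and 1, in Sprr1a, overlapped a CACCC match. The matches are letters in a window and do not show binding.

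Levels of the genes varied widely between keratin gates. In control, 9 of the 10 genes were highest in the Krt13+Krt4 gate, all but Ivl. In JQ1 the same held for 9, all but Flg, although Ivl rested on 3 UMIs there. Krtdap, a secreted protein of differentiating keratinocytes, was the most abundant: in control it ran from 1051 CPM in the Krt15 gate to 7212 in the Krt13+Krt4 gate, 6.86-fold apart. Sprr1a, a small proline-rich precursor, ran from 16.6 to 997 CPM over the same gates, 60.1-fold apart. Tgm3, a soluble transglutaminase, was lowest in the Krt42 gate at 23.7 CPM and reached 818 in the Krt13+Krt4 gate. In the control library no neighbouring levels of Sprr1a, Sprr1b, Krtdap, Sbsn, Tgm1 or Tgm3 had overlapping intervals. The levels are 3′ UMI counts, so CPM is not divided by gene length.

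**Figure D1:**
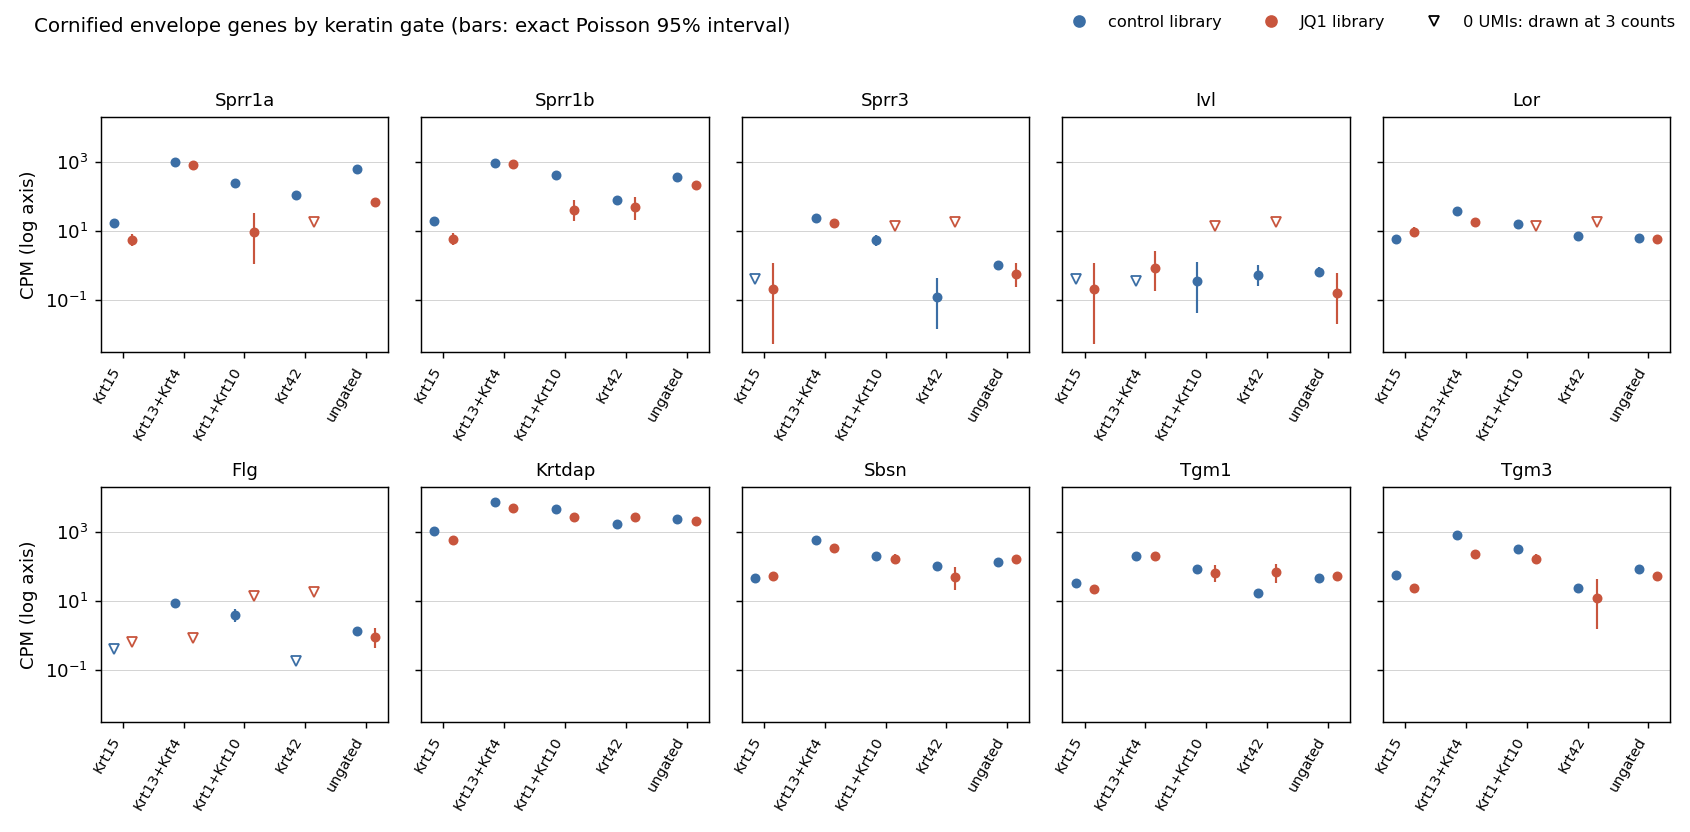
Level of each of the 10 genes (CPM, log axis) by keratin gate in the control and JQ1 libraries, with exact Poisson 95% intervals; open triangles mark 0 UMIs, drawn at 3 counts. Krtdap runs from 1051 to 7212 CPM in control, while the Ivl points with UMIs stay under 1 CPM; the JQ1 points of the Krt1+Krt10 and Krt42 gates rest on 10 cells each.

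In the Krt13+Krt4 gate, where most of these genes were highest, the 2 transglutaminases parted. The Tgm3 level was 818 CPM (799 to 838) in control against 227 (211 to 243) in JQ1. Their intervals are far apart, and the ratio is 3.61-fold lower in JQ1 (3.36 to 3.89). Tgm1, the membrane-anchored transglutaminase of keratinocytes, was at 198 CPM (189 to 208) in control and 199.9 (185 to 215) in JQ1, a ratio of 1.01 (0.922 to 1.10). The interval of the Tgm1 ratio includes 1 and that of Tgm3 does not come near it. At equal depth of 1000 UMIs per cell, 40.2% of control cells (35.3 to 45.2) and 16.5% of JQ1 cells (11.3 to 22.8) of this gate had a Tgm3 UMI, against 0.332% and 0.0109% of stromal and immune cells, whose median depths were 2880 and 3664 UMIs. Without thinning, 84.7% and 60.9% of the gate's cells had one. For Tgm1 the thinned shares were 12.9% (9.74 to 16.6) and 12.5% (8.0 to 18.3).

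Tgm3 was lower in JQ1 in the other keratinocytes too. In the Krt15 gate it was at 55.9 CPM in control and 23.2 in JQ1, 2.41-fold lower (1.96 to 3.0), and at equal depth within 1.5-fold, at a log2 ratio of -0.54. Ungated cells held 85.9 and 52.0 CPM, 1.65-fold lower (1.52 to 1.80), and all keratinocytes 149.8 and 75.2 CPM, 1.99-fold lower (1.89 to 2.10). The size depended on how cells were weighted. With the mean of the cells' own CPM in place of the summed UMIs, the log2 ratio in the Krt13+Krt4 gate was -1.07, while in the Krt15 gate it was -0.11, in ungated cells -0.27 and in all keratinocytes -0.42, all 3 within 1.5-fold. Tgm1 was within 1.5-fold in the same groups, with 55.7 CPM in control and 70.1 in JQ1 over all keratinocytes. In the Krt15 gate Tgm1 was lower in JQ1, at 32.0 CPM in control and 22.5 in JQ1, 1.42-fold (1.13 to 1.80). Its log2 ratio there ran from -0.80 to 0.13 over the alternative ways of processing.

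The proline-rich precursors Sprr1a and Sprr1b lie side by side with Sprr3 on chromosome 3 and supply cross-bridges of the envelope. Sprr1a in the Krt13+Krt4 gate was at 997 CPM (976 to 1018) in control and 789.7 (761 to 819.6) in JQ1, and Sprr1b at 940.1 (919.8 to 961) and 838 (808 to 869). By summed UMIs both were lower in JQ1 by more than counting error but within 1.5-fold, at 1.26-fold and 1.12-fold. At equal depth the share of cells with a UMI was instead higher in JQ1, with overlapping intervals. For Sprr1a it was 22.2% in control (18.2 to 26.6) and 27.8% in JQ1 (21.4 to 35.1). For Sprr1b it was 24.7% (20.6 to 29.3) and 30.7% (24.0 to 38.1). One control cell held 14.7% of the gate's Sprr1a UMIs, and with the mean of the cells' CPM the log2 ratio of Sprr1a was -1.08. Sprr3, far rarer, was at 23.6 and 16.2 CPM in this gate, 1.46-fold lower (1.09 to 2.0), and 1 cell held 31.7% of its control UMIs and 1 cell 29.8% of its JQ1 UMIs. At equal depth its direction turned, to a log2 ratio of 2.17, but only 5 control and 3 JQ1 cells had a UMI. Those shares overlapped, at 1.26% (0.411 to 2.92) and 1.70% (0.353 to 4.90).

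In ungated cells Sprr1a was at 610.3 CPM (604 to 616) in control and 66.1 (61.7 to 70.8) in JQ1, 9.23-fold lower (8.61 to 9.90). Sprr1b in the same cells was at 368 and 216 CPM, 1.70-fold lower (1.64 to 1.77). The split of Sprr1a over the gates differed between the libraries: ungated cells held 75.7% of its keratinocyte UMIs in control and 22.7% in JQ1, and the Krt13+Krt4 gate 17.3% and 76.5%. Over all keratinocytes Sprr1a was at 492 and 171 CPM, 2.87-fold lower (2.78 to 2.97), while Sprr1b was at 344 and 268 CPM, within 1.5-fold.

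Few cells carried these UMIs. The tenth of keratinocytes richest in Sprr1a held 96.6% of its UMIs in control and 99.4% in JQ1, and for Krtdap 53.7% and 63.9%. In control, 742 ungated cells had a UMI of Stmn2, a stathmin best known from neurons, and they held 25581 of the 37872 ungated Sprr1a UMIs, at 1275 CPM (1260 to 1291). The 2466 ungated control cells without Stmn2 were at 293 CPM, and Krtdap ran the other way, at 1103 CPM with Stmn2 and 3065 without. In JQ1 only 30 ungated cells had a Stmn2 UMI. Cells with Stmn2 were also deeper, with a median of 25129 UMIs in ungated control cells against 15477.5 without, and the part of depth was not tested. With all such cells left out, ungated Sprr1a was at 293 CPM in control and 44.6 in JQ1, 6.56-fold lower (6.01 to 7.16), over all keratinocytes 1.71-fold lower (1.64 to 1.77), with Sprr1b 1.58-fold lower, and in the Krt13+Krt4 gate 707 and 787 CPM, so that the direction in that gate turned. In ungated JQ1 cells a single cell with 3 Stmn2 UMIs held 295 of 827 Sprr1a UMIs and 731 of 2700 Sprr1b UMIs. Without that cell the ungated JQ1 levels were 42.7 and 158 CPM, 14.3-fold and 2.33-fold below control. Control kept its richest cells, 1 of them with 1803 Sprr1a UMIs, so this 1-sided removal could only widen the gap.

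In the Krt15 gate Sprr1a and Sprr1b were both low, and by CPM only Sprr1b in JQ1 was at the level of free RNA. Sprr1a was at 16.6 CPM in control and 5.38 in JQ1, 3.08-fold lower (2.01 to 4.90), and Sprr1b at 18.6 and 5.79. Stromal and immune cells, which should lack these transcripts, held 8.12 and 1.78 CPM of Sprr1a and 5.72 and 7.08 of Sprr1b. For Sprr1a the gate's interval lay above that of these cells in control, 13.8 to 19.7 against 6.21 to 10.4. It did so in JQ1 too, 3.51 to 7.88 against 1.42 to 2.21. For Sprr1b this held in control, 15.7 to 21.9 against 4.14 to 7.71. Sprr1b in the JQ1 Krt15 gate was not above that background. At equal depth 1.59% of control cells (0.765 to 2.90) and 0.491% of JQ1 cells (0.0596 to 1.76) of the gate had a Sprr1a UMI, against 1.11% and 0.131% of stromal and immune cells, so the 2 libraries' shares in this gate could not be told from background at this depth.

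**Figure D2:**
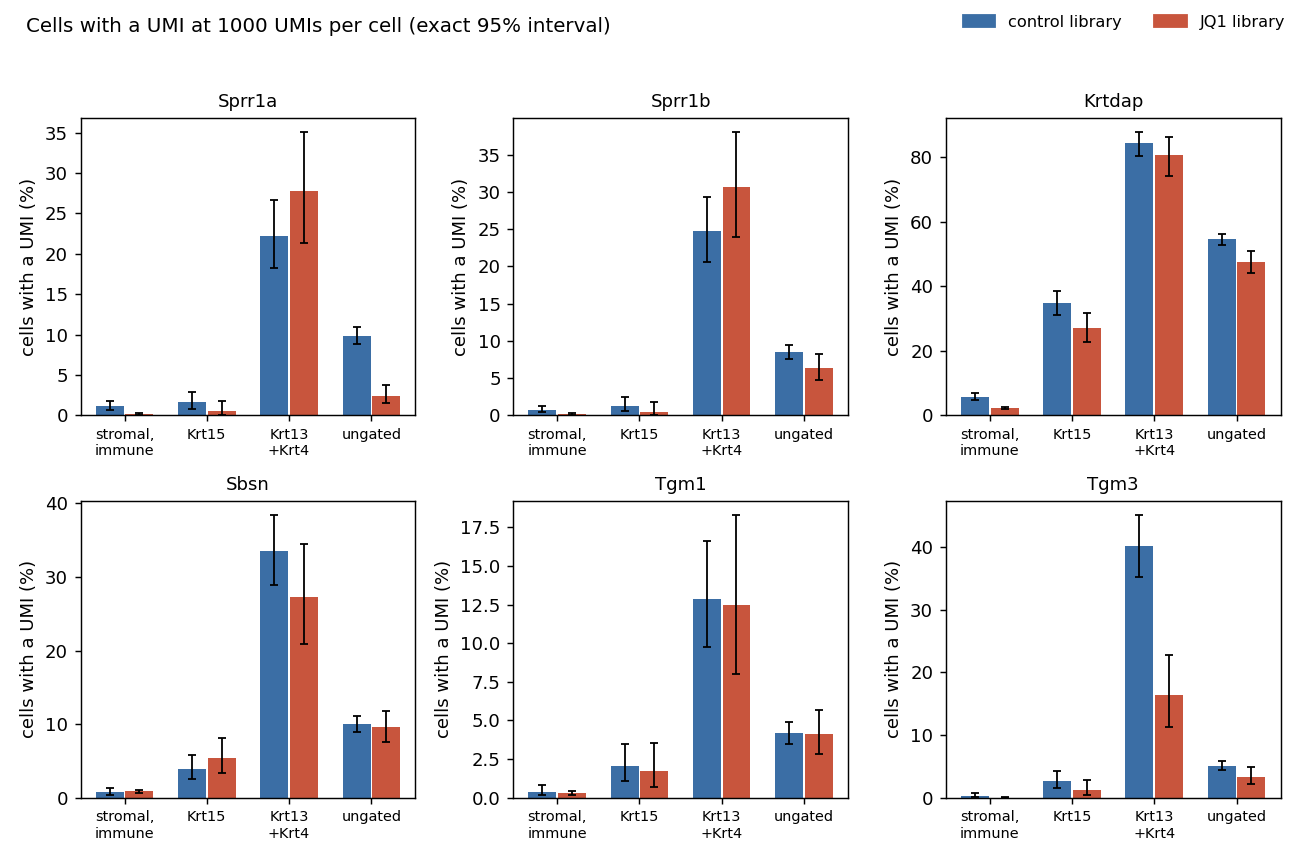
Share of cells with a UMI of 6 of the genes after thinning each cell to 1000 UMIs, in stromal and immune cells, in 2 keratin gates and in ungated keratinocytes of each library, with exact 95% intervals. Tgm3 in the Krt13+Krt4 gate is 40.2% in control and 16.5% in JQ1, while the Krt15 gate lies near the stromal and immune level for Sprr1a and Sprr1b.

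Krtdap and Sbsn, neighbouring genes for secreted proteins of differentiating keratinocytes, had ratios that depended on the gate. In the Krt13+Krt4 gate Krtdap was at 7212 CPM (7155 to 7268) in control and 5029 (4955 to 5104) in JQ1, 1.43-fold lower, and Sbsn at 579 (563 to 596) and 345 (326 to 365), 1.68-fold lower (1.58 to 1.79). In the Krt15 gate Krtdap was at 1051 and 578 CPM, 1.82-fold lower (1.74 to 1.90), far above its 41.0 and 23.6 CPM in stromal and immune cells. At equal depth both calls were lost, with log2 ratios of -0.57 for Krtdap in the Krt15 gate and -0.41 for Sbsn in the Krt13+Krt4 gate. Sbsn in the Krt15 gate was at 46.0 and 51.5 CPM with overlapping intervals. Over all keratinocytes Krtdap was at 2736 and 2243 CPM and Sbsn at 166 and 164, both within 1.5-fold. Of the Sbsn 31-base words near transcript ends, 22.5% also occur in Tmem147os, so reads of these genes may not be separable; the other 9 genes share none.

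Lor, Ivl and Flg were scarce in this tissue. Loricrin (Lor), a main envelope protein of the epidermis, was at 9.51 CPM in control and 8.42 in JQ1 over all keratinocytes, with overlapping intervals. In the Krt13+Krt4 gate it was at 38.0 (34.04 to 42.4) and 18.1 CPM (14.0 to 23.2), 2.10-fold lower (1.599 to 2.78), but 1 cell held 20.6% of the control UMIs and 1 cell 28.1% of the JQ1 UMIs. The direction turned with equal weight per cell, at a log2 ratio of 0.88, and at equal depth, at 0.87. The equal-depth value rests on few cells, since 13 of 396 control and 2 of 176 JQ1 cells had a Lor UMI. That share of cells was lower in JQ1, 1.14% (0.138 to 4.04) against 3.28% (1.76 to 5.55), with overlapping intervals. In the Krt15 gate Lor was the other way, at 5.66 CPM in control and 9.31 in JQ1, from 44 and 45 UMIs. The ratio there was 1.64 (1.06 to 2.55), with both levels under 10 CPM. Involucrin (Ivl), an early scaffold of the envelope, had 50 UMIs in control and 6 in JQ1 keratinocytes, too few to compare by gate. Filaggrin (Flg), which bundles keratin filaments, had 179 and 11 UMIs over all keratinocytes. In the Krt13+Krt4 gate it had 74 UMIs in 11 control cells and 0 in JQ1. That is 10.0-fold lower with the 0 set to 3 counts, and the exact interval starts at 7.95-fold. This limit treats UMIs as independent, yet 1 of the 11 control cells held 24.3% of the 74. At equal depth Flg was seen in 0% of the gate's JQ1 cells (0 to 2.07). The control share was 0.758% (0.157 to 2.20), so the intervals overlap. The control level of Flg, 8.53 CPM, was under the 10 CPM set for a measured gene.

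The Krt1+Krt10 and Krt42 gates held 10 JQ1 cells each and show little more than those cells. In the Krt1+Krt10 gate Krtdap was at 4463 CPM in control and 2691 in JQ1, Tgm3 at 327 and 163, and Sprr1b at 413 and 40.8 from 9 JQ1 UMIs in 3 cells. These ratios depended on the gate: with overlapping gates, where a cell may join more than 1, 0 measured genes were lower and 2 higher, Krtdap turned direction, to a log2 ratio of 0.10, and Tgm3 was at -0.14. Sprr1a rested there on 2 UMIs of 1 JQ1 cell, a ratio of 0.0370 with an interval of 0.00448 to 0.134. In the Krt42 gate Krtdap was the other way, at 1742 and 2636 CPM, 1.51-fold higher in JQ1 (1.37 to 1.66), with 33.7% of the JQ1 UMIs in 1 cell. Tgm1 was at 16.95 and 67.0 CPM, with 11 JQ1 UMIs in 2 cells. Sprr1a had 1887 control UMIs and 0 in JQ1, 6.04-fold lower with the 0 set to 3 counts. The exact interval starts at 4.91-fold but takes UMIs as independent, while 171 of 820 control cells held them all and 1 cell 28.8%. At equal depth the shares of cells with Sprr1a overlapped, at 4.03% (2.79 to 5.61) in control and 0% (0 to 30.8) in JQ1.

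A gene counted as measured with 20 or more UMIs in the libraries together and 10 or more CPM in one of them; 8 of the 10 genes were measured in the Krt13+Krt4 gate. Of these, 3 were at least 1.5-fold lower in JQ1 (Tgm3, Lor and Sbsn) and 0 higher, where 6.68% of 7376 measured genes were lower and 17.0% higher. In the Krt15 gate 4 of 6 measured genes were lower (Sprr1a, Sprr1b, Krtdap and Tgm3), against 2.25% of 8230 genes, with 0 higher against 14.4%. At equal depth that count fell to 0 of 4 measured genes, with Krtdap at -0.57 and Tgm3 at -0.54. Sprr1a and Sprr1b were no longer measured there, at log2 ratios of -1.49 and -1.83 with UMIs in 2 JQ1 cells each. The count of 4 also includes Sprr1b, whose JQ1 level of 5.79 CPM was below the 7.08 of stromal and immune cells. Lor was not among the 6 measured genes of the Krt15 gate, at 1.64-fold higher in JQ1 and under 10 CPM in both libraries. Ungated cells had 3 of 6 lower against 5.11%, with 0 higher against 14.0%, and all keratinocytes 2 of 6 lower against 4.30%, with 0 higher against 12.3%. The 10-cell gates had 4 of 7 lower against 16.2%, with 0 higher against 29.6% (Krt1+Krt10), and 4 of 6 lower against 19.3%, with 2 higher against 31.2% (Krt42). Of the 4 lower in the Krt42 gate, Sprr1b (ratio 0.268 to 1.23) and Tgm3 (0.0621 to 1.87, from 2 JQ1 UMIs) had intervals that include 1. Sprr1a was counted there with its 0 set to 3 counts. The median log2 ratio of the measured genes was -0.53 in the Krt13+Krt4 gate, -1.07 in the Krt15 gate, -0.47 in ungated cells and -0.32 in all keratinocytes, where the medians over all measured genes were 0.13, 0.18, 0.16 and 0.15. A gene can pass the level limit through the library where it is high, so these shares describe the genes and are no test.

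**Figure D3:**
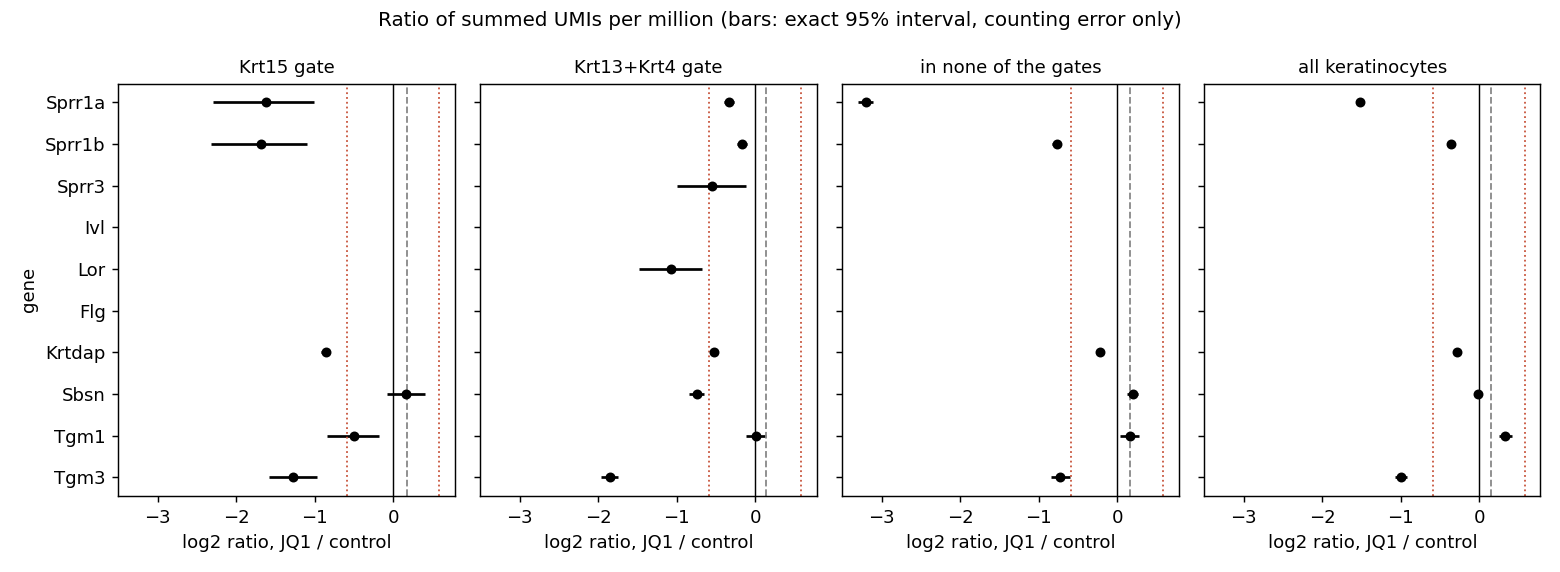
Log2 ratio of JQ1 to control for the measured genes in 2 keratin gates, in ungated cells and in all keratinocytes, with exact 95% intervals; dotted lines mark 1.5-fold and the dashed line the median of all measured genes. Tgm3 lies left of the lower dotted line in all 4 panels, and Sprr1a is farthest left in ungated cells at -3.21.

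Within cells the genes overlapped in part. At 1000 UMIs per cell, 45.6% of the 467 control keratinocytes with Sprr1a also had Sprr1b, where 8.44% of all had it. In JQ1, 60.6% of 71 such cells had Sprr1b, where 7.69% of all had it. Of control cells with Tgm3, 90.0% had Krtdap and 16.02% had Tgm1, against 56.8% and 4.30% of all keratinocytes. Cells with Sprr1a were, by contrast, at the general level for Krtdap in control, 57.4% against 56.8%. In JQ1 the figures were 76.1% and 45.9%.

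Other genes of cornification were read from lists chosen with earlier results of these data known. Of 13 measured other envelope precursors over all keratinocytes, 3 were at least 1.5-fold higher in JQ1 and 6 lower, against 12.3% and 4.30% of all measured genes. In the Krt13+Krt4 gate 2 of 15 were higher and 10 lower, against 17.0% and 6.68%, with a median log2 ratio of -2.01 against 0.13 for all measured genes. The list did not move one way. Over all keratinocytes Sprr2b was at 38.3 CPM in control and 1.41 in JQ1, 27.1-fold lower (19.0 to 40.2), and Sprr2d at 95.4 and 18.3, 5.21-fold lower. Sprr2e was at 17.2 and 5.51 CPM, and Sprr2a3 at 22.9 and 110.4, 4.83-fold higher (4.56 to 5.11). Sprr2f (35.4 and 54.5 CPM) and Ppl (25.5 and 44.4), which encodes the desmosome-linked envelope protein periplakin, were also higher. Of the 31-base words near transcript ends, 76.9% of those of Sprr2a3 and 25.3% of those of Sprr2b occur in other genes, so the counts of both are uncertain. For Sprr2d the share was 4.04%, for Sprr2e 11.7% and for Sprr2f 9.79%.

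The other lists are to be read against the same 12.3% higher and 4.30% lower of all measured genes, and counts of 0 to 2 genes near those shares are no result about a list. Among 8 measured cross-linking and processing enzymes 1 was higher and 2 lower over all keratinocytes: the kallikrein proteases Klk13, at 18.5 CPM in control and 32.0 in JQ1, and Klk8, at 303 and 107, and the filaggrin-processing protease Asprv1, at 13.2 and 6.12. Of 7 barrier lipid genes 1 was higher, the ceramide synthase Cers3 (16.4 and 25.6 CPM), and 1 lower, the lipoxygenase Alox12b (11.1 and 5.65). Of 12 junction genes 0 were higher and 1 lower, the tight junction gene Cldn1, at 23.4 and 8.52 CPM, 2.75-fold lower (2.36 to 3.21). Cldn1 was the other way in the Krt13+Krt4 gate, at 11.99 and 24.1 CPM, 2.01-fold higher (1.49 to 2.70). Of 20 differentiation regulators 1 was higher, the receptor Notch1 (82.4 and 128 CPM).

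**Figure D4:**
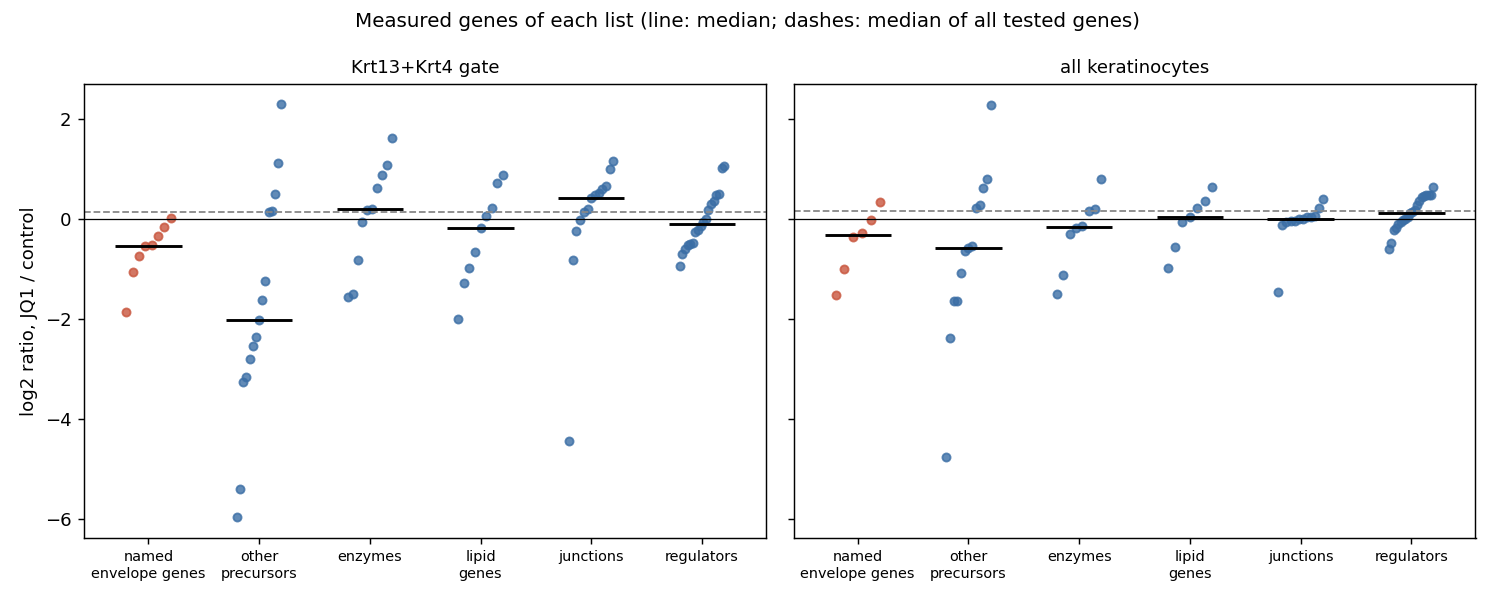
Log2 ratio of JQ1 to control for the measured genes of the 10 named envelope genes and of 5 lists, in the Krt13+Krt4 gate and in all keratinocytes; bars are medians and the dashed line is the median of all measured genes. Other precursors spread widest in the Krt13+Krt4 gate, with a median of -2.01, and the junction genes lie near 0 in all keratinocytes except Cldn1.

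The 10 other genes with the profile most like the mean of the 10 over 8 gate and library values, out of 3886 compared, were Metrnl, Serpinb1a, Cnfn, Spint1, Pdlim2, Alox12b, Bod1, Gsdmc, Prdx5 and Rbp2, with Pearson r between 0.96 and 0.98, a description over points that share libraries and, in 2 gates, 10 JQ1 cells. Cnfn, which encodes the envelope protein cornifelin, was at 393 CPM in control and 167 in JQ1 in the Krt13+Krt4 gate and at 1.41 and 0.207 in the Krt15 gate. Among the 10 genes themselves r with their mean profile was lowest for Ivl, at 0.35, and ran from 0.75 for Lor to 0.97 for Sprr3. Each of these genes is part of that mean, which raises its r. Sprr3 also had 0 UMIs in the control Krt15 gate and in the JQ1 Krt1+Krt10 and Krt42 gates.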

How the data were processed

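Per the labels, 1 control and 1 JQ1 sample were prepared with the 10x 3′ kit in version 3.1. The authors deposited raw UMI counts, one count matrix per library; mm10, Cell Ranger 3.1.0 and Seurat 4.0.0 are named in the submitters' processing notes, and the sources used here give neither the annotation nor a barcode filter. The control matrix held 9754 barcodes with 118382532 UMIs and the JQ1 matrix 16233 with 99565417.

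Cells were kept from 200 genes upwards if mitochondrial UMIs were under 20%, and 119 control and 424 JQ1 doublet calls of Scrublet (scanpy 1.11.5) were removed. The keratin limit was planned at 1% and set to 0.5% of UMIs at the sparsest stretch of that share, read from the keratins alone. The 4 keratin shares were each divided by the mean of the libraries' mean shares; a cell joined the gate with the highest value if that was at least 1, with at least 3 UMIs and, in gates of paired keratins, a UMI of each. UMIs were summed per gate and scaled to CPM over all genes, with exact Poisson intervals, exact conditional intervals for ratios and Clopper-Pearson intervals for shares. A count of 0 was set to 3 counts. A gene was called at 1.5-fold, and no p-value was made. From each list, up to 3 called genes in each direction over all keratinocytes were named, except that 1 result of the regulator list is not reported here.

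The 10 genes, the lists and the motifs were chosen with earlier results of these data known. After the alternatives were first seen, ratios set only by the limit of 3 counts were left undefined and medians of fewer than 3 genes were dropped. The split by Stmn2, the weighting by gate mix and the value without 1 JQ1 cell were also added after the data were seen. The clustering alternative used leidenalg 0.10.2 and igraph 0.11.9; matplotlib 3.10.9, pandas 2.3.3, scipy 1.17.1 and numpy 2.4.6 were run in Python 3.11.15. The ratio table was tested on simulated sums.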

Additional observations from a re-analysis of the deposited data

Results flagged for a closer look

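The ratio of Krtdap went in opposite directions between gates. It was 1.51 in the Krt42 gate, against 0.550 in the Krt15 gate and 0.603 in the Krt1+Krt10 gate (JQ1 over control). The difference between gates was not tested, since each gate has 1 library per group, and the Krt42 and Krt1+Krt10 values rest on 10 JQ1 cells each. With overlapping gates the log2 ratio of Krtdap in the Krt1+Krt10 gate turned, to 0.10, and at equal depth that in the Krt15 gate was within 1.5-fold, at -0.57.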

How the results depend on the processing

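Tgm3 kept a lower level in JQ1 under all 14 alternatives in the Krt13+Krt4 gate (log2 ratio -2.004 to -1.07) and all 15 over all keratinocytes (-1.37 to -0.42), and Sprr1a under all 14 in ungated cells (-3.43 to -2.71) and all 15 over all keratinocytes (-2.18 to -0.77). The lowest of the last, -2.18, came from weighting the JQ1 gates by the control mix. The number of lower genes moved to 5 in the Krt13+Krt4 gate with median-of-ratios size factors and to 1 in all keratinocytes with the mean of the cells' CPM. In the Krt15 gate at equal depth it moved to 0 of 4 measured, where Sprr1a and Sprr1b, at -1.49 and -1.83, were not measured. Without the limit on low genes the number of lower genes was 6 in ungated cells and 4 in all keratinocytes, and 1, Lor, was higher in the Krt15 gate. The number of higher genes in the Krt13+Krt4 gate was 2 with the mean of the cells' CPM and 2 at equal depth, where Lor reversed (log2 ratios 0.88 and 0.87). At equal depth these genes, Sprr3 and Lor, had UMIs in only 3 and 2 JQ1 cells. In the Krt42 gate 1 gene was higher with size factors, with the mean of the cells' CPM, with the stricter cell filter, with no gene or mitochondrial limit and without cells with Stmn2. In the Krt1+Krt10 gate 1 was higher at equal depth, and with overlapping gates 2 were higher and 0 lower, with Krtdap at 0.10 and the median at 0.080. The causes were not tested. The median over the measured genes ran from -0.69 to -0.19 in the Krt13+Krt4 gate, -1.32 to -0.36 in the Krt15 gate, -0.85 to -0.23 in ungated cells and -0.55 to -0.22 in all keratinocytes. At equal depth the Krt42 gate had too few measured genes for a value. No paired analysis was possible because each group is 1 library. Depth and the 10 JQ1 cells limit the Krt1+Krt10 and Krt42 gates. In the Krt15 gate Sprr1a and Sprr1b were low, with Sprr1b in JQ1 at the level of free RNA.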
